A study of Danio rerio and Garra andruzzii with 24 samples.

Results

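The count table of zebrafish PAC-2 cells under blue light holds, beside the annotated genes, transcribed regions that the genome annotation does not list and that carry a running number in place of a gene name. They are called loci here and identified by that number. The loci described here are those regions with a mean raw count of 10 or more over the 12 PAC-2 libraries. They number 3317 of 3985 unannotated regions, in a table of 35886 genes and regions. The choice used the mean count over all libraries and no difference between times. A locus that is low in the dark could still reach the minimum through the libraries where it is high. Locus 3368, at a mean raw count of 10.8, had raw counts of 4, 4 and 3 at 0 h and 25, 15 and 23 at 6 h. Loci 1283, 1214, 1213 and 1952, described below, also had raw counts under 10 in every 0 h library. The loci just inside the minimum, locus 2665 and locus 1487, had a mean raw count of 10.00 each, and those just outside it, locus 2895 and locus 2264, had 9.92 each.

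PAC-2 is a zebrafish cell line derived from embryos and labelled as fibroblasts. The cells were kept in darkness for 2 days and then exposed to blue light of 468 nm, and RNA was taken before exposure (0 h) and after 1 h, 3 h and 6 h of light, with 3 libraries per time. No dark libraries accompany the later times, so hours of light and hours elapsed cannot be told apart, and nothing in the labels or methods tells if replicate libraries stem from separate cultures, and p-values here speak only of variation among libraries, which may be technical. The series also holds 12 libraries of the cavefish line EPA, which were not used here.

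Most zebrafish cells sense light directly. In cultured cells, light sets the circadian clock and switches on genes of the clock (period and cryptochrome genes), of DNA repair (photolyases, which use blue light to reverse ultraviolet damage) and of redox defence. An unannotated locus can be a separate gene, a further exon or a longer end of a known gene, an RNA from the opposite strand, or a second copy of a known gene on an alternate contig, that is, an additional assembled version of a stretch of the genome beside the main chromosome.

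Of the 3317 loci, 2207 (66.5%) lay on 683 alternate contigs, 935 on the main chromosomes and 175 on 148 unplaced scaffolds. The table lists 0 annotated genes on the alternate contigs, so every transcript counted there is an unannotated locus by construction. Positions are in the build GRCz11. The positions on an alternate contig appear to be numbered along the chromosome in its name: at the same numbers of that chromosome, 1905 of the 2207 loci (86.3%) overlapped an annotated gene on their own strand and 686 (31.1%) one on the opposite strand. Where both the locus and the same-strand gene carried a protein domain family, 700 of 773 (90.6%) had the same family. This placement was adopted after seeing these values, and an annotated gene named for an alternate contig locus below is the gene at that position, not the name of the locus. The numbers may be shifted against the chromosome. Locus 2684, with a ribosomal protein L10e domain, lies 13869 bases from rpl10 by them. Distances given below for alternate contig loci are differences of these numbers and may not be distances in the genome.

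The loci on alternate contigs resembled coding genes in structure. They had a median transcript length of 2573 bases over a median genomic span of 14812 bases, 97.7% had a span longer than the transcript (spliced), and 80.6% carried a Pfam protein domain. The chromosome loci were shorter, with a median length of 1493 bases, 81.9% spliced and 26.0% with a domain. The annotated protein-coding genes with a mean count of 10 or more had a median length of 2568.5 bases, and 98.5% of them were spliced. Of the chromosome loci, 518 (55.4%) lay within 5000 bases of an annotated gene, and only 3 overlapped one. Within those 5000 bases, 154 lay downstream on the same strand, 173 downstream on the opposite strand, 97 upstream on the same strand and 91 upstream on the opposite strand.

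The loci took 7.12 to 7.52% of the counts of each library, whose totals ran between 20037859 and 32521127. Levels per length, as FPKM, had a median of 2.41 over the loci, against 5.14 over the annotated coding genes. A few were among the abundant messengers of the cell. Locus 2684, with a ribosomal protein L10e domain, averaged 1889 ± 231 FPKM (SD over the 12 libraries), locus 2506, with a ribosomal protein L32 domain, 1604 ± 275 FPKM, and locus 3380, with an intermediate filament domain, 1257 ± 105 FPKM. Locus 2600, at the position of the keratin gene krt8, had 739 ± 77.9 FPKM, and locus 2115, with no domain, 667 ± 125 FPKM. At 6 h against 0 h, none of these 5 passed the fold threshold, with log2 fold changes between -0.26 and -0.10. By the markers of the labelled cell type, 7 of 11 fibroblast genes were above 10 FPKM at 0 h, with col1a2 and col5a1 highest, as were 3 of 6 epidermal genes, with krt8 and krt4 highest, and 1 of 4 muscle genes (acta1a highest), 1 of 4 pigment genes (dct highest) and 1 of 4 endothelial genes (kdr highest). Their summed levels were 17.8 to 20.5 FPKM at 6 h, against 33.3 to 38.5 at 0 h, for muscle, 105 to 107 FPKM at 6 h, against 91.5 to 100.2 at 0 h, for pigment and 16.7 to 19.4 FPKM at 6 h, against 9.75 to 12.6 at 0 h, for endothelium, and their part in the results was not tested. The summed levels of the epidermal list were 583 to 603 FPKM at 0 h and 513 to 522 at 6 h. Those of the fibroblast list were 561 to 566 at 0 h and 536 to 551 at 6 h. All these sums count annotated genes only, so the 739 FPKM of locus 2600, at the position of krt8, is not in the epidermal sum. In neural, blood and liver lists, 0 of 5, 0 of 4 and 0 of 3 genes exceeded 1 FPKM.

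During the hours of light a small set of the loci rose and almost none fell. Changes were tested with edgeR's quasi-likelihood test over all 18017 genes and loci that passed the filter on low counts, 3309 of the 3317 loci among them. A locus is said to have passed, to rise or to fall where its log2 fold change was at least 1 in size with a Benjamini-Hochberg adjusted p under 0.001. After 6 h of light, 45 loci rose and 1 fell. The 45 are 1.36% of the loci tested, beside 1.47% of all genes and loci for rises and 0.0722% for falls, so the unannotated loci responded at a rate near that of the whole table. After 3 h, 27 rose (0.816% of the loci tested) and 1 fell (0.0302%), beside 0.705% of all genes and loci for rises and 0.0278% for falls. The median log2 fold change of all loci tested was -0.01 at 6 h and 0.02 at 3 h, beside 0.00 at both times over all genes and loci.

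At 1 h, 0 loci passed in either direction by edgeR, beside 0.0222% of all genes and loci for rises and 0% for falls. At an unadjusted p under 0.05 by the same test, 116 of the 3309 loci tested were higher and 105 lower at 1 h than at 0 h. A share near 0.05 is reached at that threshold with no change at all, and the share over all genes and loci was not taken. These counts alone therefore show no response at 1 h. DESeq2 called 1 locus lower at 1 h, locus 1494, with a log2 fold change of -3.16 and an adjusted p of 7.6e-06; edgeR gave it an adjusted p of 0.016. With replicate 2 of 0 h left out, edgeR called locus 3234 instead, at a log2 fold change of -3.21.

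In all, 50 loci passed at 3 h or 6 h. Of the 48 that rose, 24 did so at both times, 21 at 6 h alone and 3 at 3 h alone. All 46 that passed at 6 h had every 6 h library beyond every 0 h library, and so did all 28 at 3 h. Counting as 1 site any loci less than 50000 bases apart, the 50 loci fell into 41 sites, of which 7 held more than 1 locus. By class, 37 were on alternate contigs, 11 on chromosomes and 2 on an unplaced scaffold. They carried a Pfam domain in 32 of 50 cases, beside 63.1% of all loci, and 46 of 50 were spliced, beside 92.9%.

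**Figure D1:**
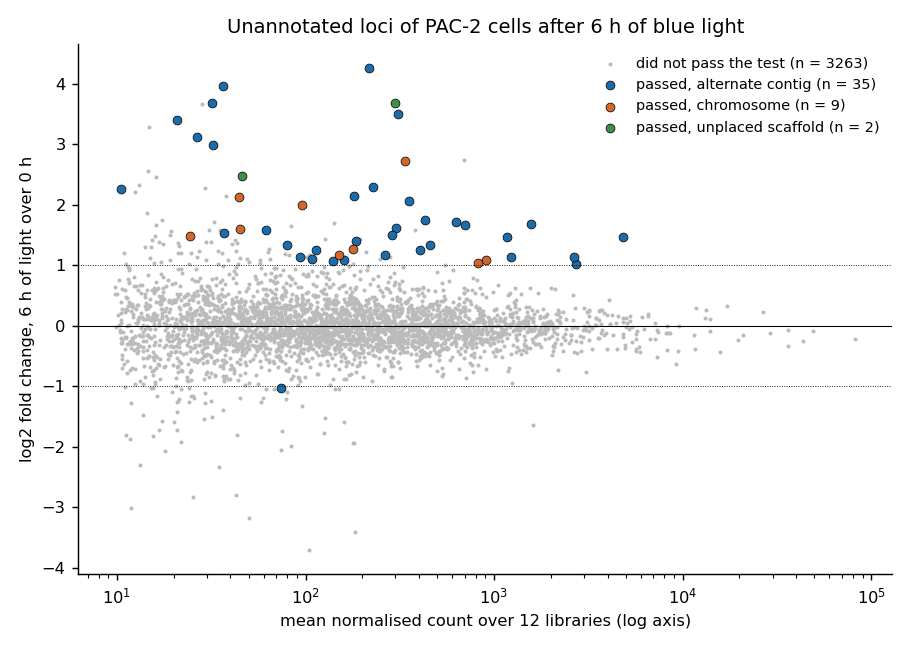
Each point is 1 of the 3309 unannotated loci tested, with its mean normalised count over 12 libraries (log axis) against its log2 fold change at 6 h over 0 h. The 46 loci that passed are coloured by where they lie (35 on alternate contigs, 9 on chromosomes, 2 on a scaffold); all but 1 lie above the dotted line at 1, while grey points past the dotted lines did not reach the adjusted p.

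The strongest responder was locus 2065, on the plus strand of CHR_ALT_CTG18_1_2 from 6126466 to 6145088. Its predicted protein holds the photolyase domain and the FAD-binding domain that photolyases and cryptochromes share, and it was the only locus of the 3317 with the photolyase domain. Its normalised counts (scaled to a common library size) were 35.8, 16.0 and 18.4 at 0 h, 37.3, 43.0 and 25.3 at 1 h, 337, 324 and 372 at 3 h, and 481, 477 and 444 at 6 h. The 3 h and 6 h libraries stood far above all others, and 1 h overlapped 0 h. The log2 fold change was 3.82 ± 0.21 (SE) at 3 h and 4.26 ± 0.21 at 6 h, with adjusted p of 5.2e-09 and 6.0e-10 by edgeR. The annotated gene at its position, si:ch1073-390k14.1, had a mean raw count of 4.83 and was not tested: 97.9% of the counts of both lay at the unannotated locus.

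A group of 3 loci lay together near si:dkey-5g14.1, on minus strands of a pair of alternate contigs named for chromosome 10. Of these, locus 1283 (CHR_ALT_CTG10_2_3, 26492922 to 26503123) and locus 1214 (CHR_ALT_CTG10_1_24, 26497739 to 26502200) carry the domain of the Major Facilitator Superfamily, a family of membrane transporters, and locus 1213 (CHR_ALT_CTG10_1_24, 26491648 to 26497639) carries none. Of the 7 loci with this domain, only locus 1283 and locus 1214 passed at 3 h or 6 h, beside 1.63% of all genes and loci tested. Domains are described here because loci that passed carry them. The most frequent domain families held 0 loci that passed, among them zf-C2H2 (51 loci), Pkinase (47) and RRM_1 (28). By the contig numbering, which may be shifted, the position of si:dkey-5g14.1 is overlapped by locus 1283 alone. Locus 1214 lies 134 bases and locus 1213 4695 bases from it in these numbers. At 6 h, locus 1283 had 115, 80.8 and 73.5 normalised counts, against 6.60, 7.39 and 2.63 at 0 h. Locus 1214 had 70.3, 69.2 and 96.9 at 6 h, against 7.54, 6.15 and 3.94 at 0 h. Locus 1213 was more uneven, with 36.0, 65.0 and 34.1 at 6 h, against 6.60, 2.46 and 2.63 at 0 h. The log2 fold changes at 6 h were 3.96 ± 0.31, 3.68 ± 0.31 and 3.41 ± 0.52, and the last lost its call without replicate 2 of 0 h, at a log2 fold change within 3.05 to 4.07 over the fits that leave out 1 library. These loci share a place and are not independent responders.

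Enzymes with a short chain dehydrogenase domain, which move hydrides between NAD(P) and small molecules, formed another pair. Locus 2029, on CHR_ALT_CTG17_2_5 from 23549746 to 23552690 at the position of zgc:65997, had 53.7, 62.8 and 53.8 normalised counts at 0 h, 57.1, 75.7 and 71.4 at 1 h, 448, 517 and 427 at 3 h, and 642, 618 and 668 at 6 h. Its log2 fold change was 3.50 ± 0.12 at 6 h (adjusted p = 1.8e-12, edgeR), and zgc:65997 itself had a mean raw count of 0.33. Locus 1952, on CHR_ALT_CTG17_1_16, rose by a log2 fold change of 3.11 ± 0.36 from a far lower level. It had a mean of 50.5 normalised counts at 6 h, against 5.85 at 0 h. Its nearest annotated gene was htr7a, 8412 bases away on the opposite strand, with a mean raw count of 0. The gene of the same domain family, zgc:65997, lay 15414 bases away. Another locus with this domain, locus 2862, at the position of dhrs1, rose less (1.25 ± 0.17 at 6 h). Summed with dhrs1, an alternative described below, it was no longer past the threshold (0.77). The other 3 loci with this domain did not pass. Thus 3 of 6 passed, beside 1.63% of all genes and loci tested, and locus 2029 and locus 1952 lie at 1 site.

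On the unplaced scaffold KN150699.1, a pair of loci with an ADP-ribosylglycohydrolase domain, which in known enzymes removes ADP-ribose from proteins, rose together. Locus 3956 (1757 to 5998, minus strand) had 684, 723 and 665 normalised counts at 6 h, against 55.6, 41.8 and 63.0 at 0 h, a log2 fold change of 3.69 ± 0.14 (adjusted p = 8.5e-12, edgeR). Locus 3957 (6913 to 8654, minus strand) had 102, 89.1 and 95.8 at 6 h, against 15.1, 17.2 and 19.7 at 0 h, a log2 fold change of 2.47 ± 0.28. The annotated gene on the plus strand 126 bases beyond locus 3957, CABZ01090029.1, also rose, by 1.01 ± 0.10, to 379, 380 and 362 at 6 h, against 170, 174 and 215 at 0 h. The other of the 3 loci with this domain, locus 1994, did not pass (-0.09 ± 0.17 at 6 h). Thus 2 of 3 passed, beside 1.63% of all genes and loci tested, and both lie at 1 site.

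**Figure D2:**
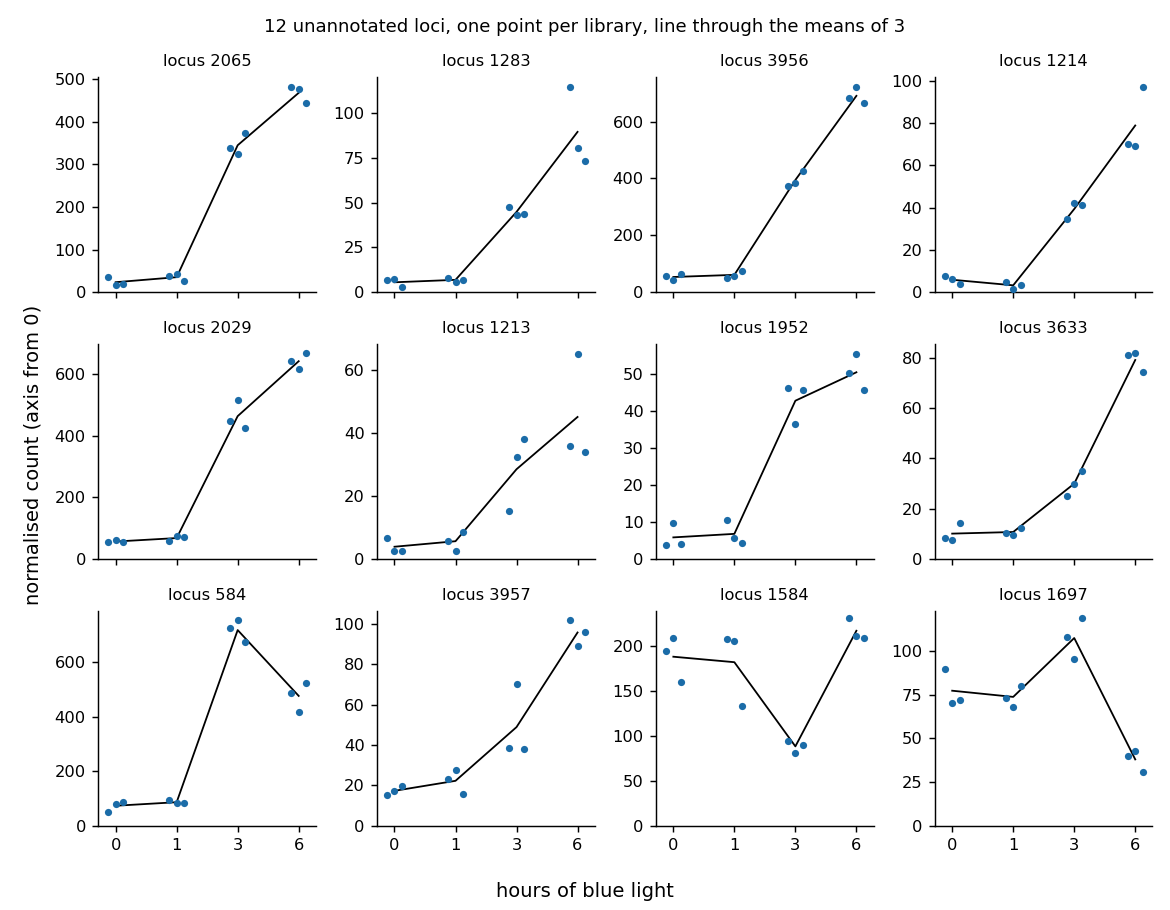
Normalised counts (axis from 0) of 12 unannotated loci against hours of blue light, 1 point per library and a line through the means of the 3 libraries of each time. The first 10 panels are the loci with the largest rises at 6 h, which stay near their 0 h level at 1 h; locus 584 is highest at 3 h, locus 1584 is lowest at 3 h and locus 1697 is lowest at 6 h.

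Several of the loci on the main chromosomes lay beside genes that rose themselves. Locus 584, on the minus strand of chromosome 21 from 1676574 to 1679476, lay 6310 bases downstream of fech, the ferrochelatase that completes heme by inserting iron, and on the opposite strand. It had 50.9, 81.2 and 89.3 normalised counts at 0 h, 93.2, 84.4 and 82.8 at 1 h, 726, 754 and 675 at 3 h, and 487, 418 and 525 at 6 h. It was thus highest at 3 h, with log2 fold changes of 3.31 ± 0.15 at 3 h and 2.72 ± 0.15 at 6 h. fech was higher at 6 h (mean 770 normalised counts) than at 3 h (376), with log2 fold changes of 3.75 ± 0.12 and 2.71. The difference of locus 584 between 6 h and 3 h, -0.59, had an adjusted p of 0.0012 and did not pass the fold threshold.

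Downstream of slc23a2, a transporter of ascorbic acid, a locus on the chromosome and another on an alternate contig occupied nearly the same numbers. Locus 1102 (chromosome 8, 42987498 to 42989323, plus strand) began 809 bases beyond the end of slc23a2, and locus 3633 (CHR_ALT_CTG8_1_25, 42986904 to 42988865, plus strand) 215 bases beyond it. Locus 3633 had 81.1, 81.8 and 74.5 normalised counts at 6 h, against 8.48, 7.39 and 14.4 at 0 h (log2 fold change 2.98 ± 0.26). Locus 1102 had 94.5, 94.4 and 80.9 at 6 h, against 27.3, 16.0 and 17.1 at 0 h (2.13 ± 0.26). slc23a2 had 148, 147 and 164 at 6 h, against 33.9, 28.3 and 23.6 at 0 h (2.40 ± 0.22). All 3 features lie on the same strand and had 6 h libraries clear of the 0 h libraries.

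Locus 815, on the minus strand of chromosome 3 from 14081322 to 14092557, carries a basic region leucine zipper and lay 7136 bases downstream of nfil3-6, a bZIP repressor of the clock-related Nfil3 family. It had 629, 571 and 590 normalised counts at 0 h, 869, 855 and 804 at 1 h, 880, 939 and 904 at 3 h, and 1328, 1282 and 1180 at 6 h. The libraries of all 3 light times lay above those of 0 h, but only the 6 h difference passed, at 1.08 ± 0.06 (adjusted p = 2.0e-09, edgeR). nfil3-6 had 519, 551 and 471 at 6 h, against 61.3, 46.8 and 56.5 at 0 h, a log2 fold change of 3.22 ± 0.12.

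A basic leucine zipper domain of any of the Pfam bZIP families occurred in 10 of the 3317 loci, and 3 of these passed at 3 h or 6 h, beside 1.63% of all genes and loci tested. The other 7 had log2 fold changes between -0.88 and 0.84 at 6 h. Locus 1202 (CHR_ALT_CTG10_1_2, 5396991 to 5402060) has the vertebrate interleukin-3 regulated transcription factor domain of the Nfil3 family; it overlaps the position of the receptor gene ror2, at a mean raw count of 0, and lies 12164 bases from nfil3, at 0.33. It had 48.1, 25.8 and 30.2 normalised counts at 0 h, 62.9, 59.7 and 61.9 at 1 h, 74.6, 84.4 and 103 at 3 h, and 69.4, 88.1 and 69.2 at 6 h. The rise at 3 h, 1.30 ± 0.22, kept its call in only 3 of the 12 fits that leave out 1 library. Locus 1504 (CHR_ALT_CTG12_2_1, 19159129 to 19166304) overlaps the position of zc3h7b on the same strand, with 17.9% of the counts of both, and lies 5952 bases from tefa, a bZIP activator of the PAR family; it rose by 1.17 ± 0.15 at 6 h, and its difference of 0.93 ± 0.15 at 3 h did not reach the fold threshold. Summed with zc3h7b and the other loci that overlap there, it did not pass at 6 h (0.24), and zc3h7b alone gave 0.10 ± 0.10. But zc3h7b is described as a CCCH zinc finger gene, while locus 1504 carries a bZIP domain. The share of counts and the sum may therefore not compare copies of the same gene, and the lost call does not bear on the rise of the locus. tefa had a log2 fold change of 1.02 at 3 h, which passed, and 0.87 at 6 h, which did not.

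On a list of 29 genes of the clock, DNA repair and light response, 4 loci had their nearest annotated gene. Beside locus 815, locus 3657 (CHR_ALT_CTG8_1_6, 21249329 to 21252867) lies at the position of cry1ba, a cryptochrome that represses the clock's transcription factors. It had 371, 350 and 342 normalised counts at 6 h, against 76.3, 76.3 and 88.0 at 0 h (2.15 ± 0.11), and cry1ba had 631, 588 and 639, against 113, 219 and 99.8 (2.11 ± 0.29). Locus 1912, at the position of the bZIP gene dbpb, had 14.2, 13.6 and 13.8 at 6 h, against 38.6, 29.5 and 30.2 at 0 h, a difference of -1.24 with an adjusted p of 0.0045 that did not pass; dbpb itself fell, with a log2 fold change of -1.61 ± 0.12. Locus 2084 overlaps the position of both ddb2, a damage sensor of nucleotide excision repair, and kbtbd4, and carries the BTB and Kelch domains; its log2 fold change was -0.06 at 6 h, while ddb2 rose by 3.34 ± 0.41.

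Some other loci on alternate contigs rose at the position of an annotated gene that had few of the counts. Locus 1605 at the position of hells, a chromatin remodelling helicase, had 2791, 2433 and 2510 normalised counts at 6 h, against 829, 809 and 776 at 0 h (1.68 ± 0.07), beside a mean raw count of 0.5 at hells. Locus 1518 at the position of cox15, which makes heme A for cytochrome c oxidase, had 8182, 8051 and 7757 at 6 h, against 2853, 2683 and 3137 at 0 h (1.47 ± 0.06), and held 99.8% of the counts of both. Locus 2487 at the position of hmox2a, a heme oxygenase that degrades heme, had 1903, 1967 and 1868 at 6 h, against 688, 686 and 695 at 0 h (1.47 ± 0.06), with 99.7% of the counts. In each of these the 6 h libraries lay far above those of 0 h.

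Further loci on alternate contigs rose at 6 h. Locus 1811 at coq8b, a kinase-like protein of coenzyme Q synthesis, rose by 1.67 ± 0.07, and locus 1289 at uqcc3, an assembly factor of respiratory complex III, by 1.61 ± 0.09. Summed with the other loci and genes that overlap at its position, locus 1811 did not pass at 6 h (0.58) or 3 h (0.21). Locus 2257, with a domain named for ATP synthase regulation, rose by 2.05 ± 0.09 at the position of a lincRNA gene, CU467110.1. On 1 alternate contig of chromosome 18, locus 2086 at bida (1.33 ± 0.11) and locus 2089 at bcl2l13 (1.26 ± 0.09), both of the Bcl-2 family of apoptosis regulators, rose. Locus 1473, with the SelR domain of methionine sulfoxide reductases and at the position of msrb1b and meiob, rose by 1.74 ± 0.09, but did not pass when summed in the same way, at 0.63 at 6 h and 0.50 at 3 h. Locus 3386, with acyl-CoA dehydrogenase domains, rose by 1.13 ± 0.04 and locus 3654 at aldh9a1a.2, an aldehyde dehydrogenase, by 1.02 ± 0.05 (0.91 and not past the threshold when summed). Locus 3640, with the receptor domains of rorca, a nuclear receptor that acts on clock genes, rose by 1.08 ± 0.17 while rorca had a mean raw count of 0; it lost its call without replicate 2 of 0 h or replicate 2 of 6 h, at 0.93 to 1.21 over the fits that leave out 1 library.

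**Figure D3:**
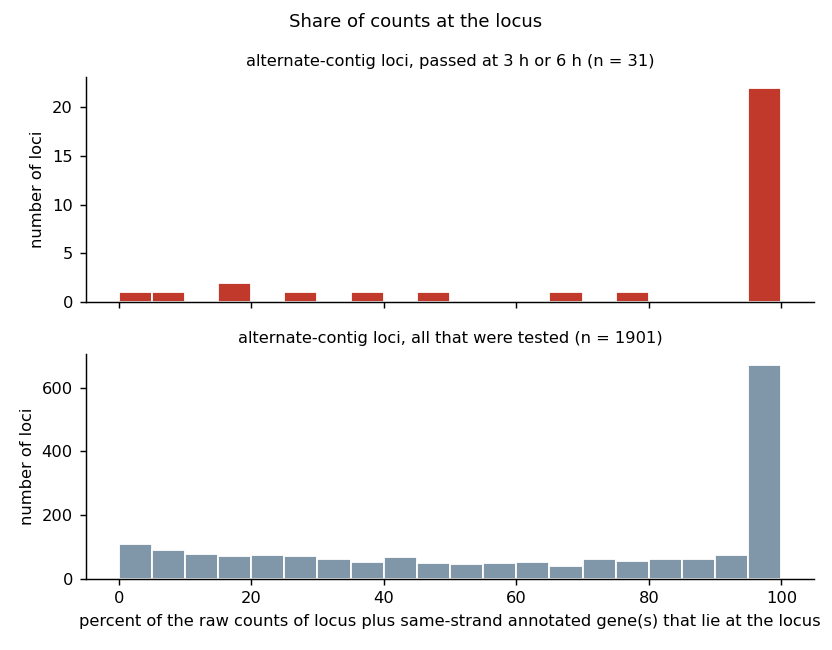
Percent of the raw counts of a locus plus the same-strand annotated gene or genes at its position that lie at the locus, for the 31 alternate contig loci that passed at 3 h or 6 h (top) and for all 1901 tested (bottom). Of the 31, 22 hold over 90% of the counts and lie in the rightmost bar.

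Over all 1905 alternate contig loci with a same-strand gene at their position, a median of 73.5% of the counts of locus and gene together lay at the locus (quartiles 28.4% and 99.2%). In 749 the locus had over 90% of the counts and in 200 under 10%. For 616 (32.3%) the annotated gene or genes had a mean raw count under 10, and for 403 under 1. Among the 31 that passed, 20 stood over annotated genes with a count under 10 and 22 held over 90% of the counts. At the 31, 33 annotated genes lay on the same strand, of which 11 had enough counts to be tested and 4 rose at 6 h, beside 1.47% of all genes and loci tested. How reads that match both a chromosome and an alternate contig were counted is not stated in the sources, so the split between contig and chromosome is uncertain. Its part in the folds was examined only by summing features that overlap. Such a sum can also join different genes, as mlst8, msrb1b and meiob in the unit of locus 1473. A call lost in a sum therefore does not tell how reads were split. With all loci and genes that overlap on 1 strand, directly or through a further one, summed to a unit (an alternative chosen after seeing the data), 27 of 1501 summed units rose at 6 h. In the main fit, without summing, 1.47% of all genes and loci tested rose. Of the 27 units, 15 held a locus that had passed where no annotated gene had. In most of these 15 the annotated genes had too few counts to be tested and so could not pass. Examples are hells, at a mean raw count of 0.5, and zgc:65997, at 0.33. The 15 therefore do not show that locus and gene responded differently.

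In some pairs the split was the other way, or locus and gene gave different values. Locus 3368 held 0.348% of the counts at abcc4, an exporter of drugs and organic anions, and its rise of 2.25 ± 0.41 at 6 h rested on 20.9, 15.7 and 24.5 normalised counts at 6 h, against 3.77, 4.92 and 3.94 at 0 h. That call was lost in 8 of the 12 fits that leave out 1 library, at 2.11 to 2.40, while abcc4 rose by 1.39 ± 0.05. Locus 1631 at dnajc4, a DnaJ co-chaperone, held 47.6% and rose by 2.29 ± 0.15, beside 1.99 ± 0.12 at dnajc4. Locus 2754 at ift140, of the ciliary transport complex, rose by 1.57 ± 0.19, beside 1.24 ± 0.16 at ift140. By contrast, locus 3759 rose by 1.49 ± 0.11 where ptpn4a gave 0.08 ± 0.15 and locus 3056 by 1.13 ± 0.06 where zgc:113208 gave 0.02 ± 0.06. The difference between locus and gene was not tested, and neither passed when summed, at 0.84 for the unit of locus 3759, which holds 4 loci and 2 genes, and 0.12 for that of locus 3056, which holds 3 loci and 3 genes.

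Of the 50 loci, 46 had an annotated gene within 5000 bases or at their position, and 41 had one on the same strand. Such nearness was common among all loci. Of the 37 alternate contig loci that passed, 31 overlapped a same-strand gene, beside 86.3% of all alternate contig loci. Of all chromosome loci, 55.4% lay within 5000 bases of a gene on either strand. The 11 chromosome loci had 11 nearest genes, of which 10 were tested and 6 rose at 6 h (fech, slc23a2, dnajc4, nfil3-6, yme1l1a and slc19a2), beside 25 of the 1852 tested genes that are nearest to any of the 3317 loci. Of these 11 loci, 5 lay downstream of that gene on the same strand within 5000 bases, as did 154 of the 935 chromosome loci. Locus 685, 2152 bases beyond yme1l1a, a mitochondrial protease, rose by 1.17 ± 0.13 beside 1.27 ± 0.07 for the gene. Locus 1028, 3195 bases beyond slc19a2, a thiamine transporter, already rose at 3 h (1.03 ± 0.07), when slc19a2 was at 0.04, and stayed at 1.03 ± 0.07 at 6 h, when slc19a2 was at 1.95 ± 0.17; its call was lost at both times without replicate 1 of 0 h, and at 3 h also without replicate 2 of 3 h, at 0.97 to 1.07 at 3 h and 0.99 to 1.06 at 6 h over the fits that leave out 1 library. Locus 235, on the strand opposite to dnajc4 and 1241 bases beyond it, rose by 1.59 ± 0.25 and lost its call without replicate 2 of 0 h or replicate 3 of 6 h (1.32 to 1.77).

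Other chromosome loci rose beside a gene that did not. Locus 382 (chromosome 18, 34937746 to 35015850, plus strand) had 61.3, 54.2 and 39.4 normalised counts at 0 h, 58.3, 59.7 and 44.4 at 1 h, 73.8, 56.6 and 82.7 at 3 h, and 215, 228 and 180 at 6 h, and the 3 h libraries overlapped those of 0 h. Its log2 fold change at 6 h was 1.99 ± 0.19, beside -0.30 ± 0.47 for LO018333.1, 2568 bases upstream of it. Locus 490 (chromosome 2, 11536587 to 11593938, minus strand) had 304, 306 and 310 at 6 h, against 118, 121 and 146 at 0 h (1.26 ± 0.13), and its nearest gene, penka, 23768 bases away, gave 0.00 ± 0.13.

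**Figure D4:**
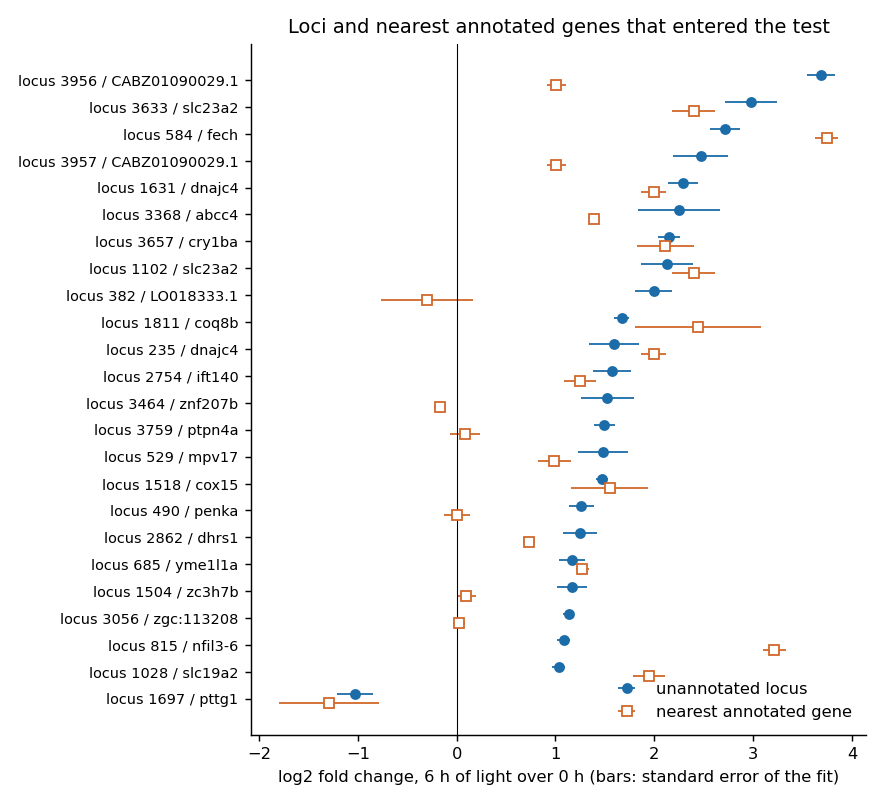
Log2 fold change at 6 h over 0 h of unannotated loci that passed at 6 h (filled circles) and of their nearest annotated gene where tested (open squares). Bars are the standard error, computed from the fold change and the F statistic of the test. Locus and gene lie close for cry1ba and yme1l1a, for example, while the gene lies near 0 for ptpn4a, zgc:113208, zc3h7b and penka. For fech and nfil3-6 the gene lies well above its locus.

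Only 2 loci fell. Locus 1697 (CHR_ALT_CTG14_1_29, 34558796 to 34561203) lay at the position of pttg1, the securin that keeps sister chromatids from separating before anaphase. It had 89.5, 70.2 and 72.2 normalised counts at 0 h, 73.4, 67.7 and 80.2 at 1 h, 108, 95.5 and 119 at 3 h, and 40.2, 43.0 and 30.9 at 6 h. Its log2 fold change was -1.03 ± 0.18 at 6 h. pttg1 gave -1.29 ± 0.50 with an adjusted p of 0.091, and the sum of both -1.25 with an adjusted p of 0.039, which did not pass (edgeR). Locus 1584 (CHR_ALT_CTG13_1_5, 8628116 to 8645601), with the SOCS box and SH2 domains of socs5b 78 bases away, had 195, 209 and 160 at 0 h, 207, 206 and 133 at 1 h, 93.9, 81.0 and 90.3 at 3 h, and 232, 211 and 209 at 6 h, a log2 fold change of -1.09 ± 0.16 at 3 h. Both lay close to the fold threshold, and each lost its call in 5 of the 12 fits that leave out 1 library, at -1.12 to -0.90 and -1.19 to -1.01.

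Between the later times, 35 loci (1.06% of those tested) were higher and 10 (0.302%) lower at 6 h than at 3 h. The shares of all genes and loci tested were 1.5% for higher and 0.0999% for lower. This comparison shares its 6 h and 3 h libraries with those above. Of the 35, 32 had a 3 h level below 0 h, and only 4 had passed against 0 h. The 35 were long loci, with a median span of 25587 bases, beside 9617 bases over all loci tested. For the higher features, the whole table showed the same traits. Of its 270 genes and loci higher at 6 h than at 3 h, 244 had a 3 h level below 0 h and 40 had passed against 0 h. Their median span was 35412.5 bases, beside 15756 bases over all genes and loci tested. Locus 2024, at the position of birc6 and with its BIR domain, averaged 125 normalised counts at 6 h, against 17.2 at 3 h, and locus 3911, on an unplaced scaffold, 256 at 6 h, against 77.2 at 3 h. The 10 lower loci were short, with a median span of 3339 bases, and all 10 had a 3 h level above 0 h, such as locus 223 with 156 at 6 h, against 438 at 3 h. Loci lower at 6 h than at 3 h are picked partly for a high 3 h level. Span and 3 h level were not summarised for the lower features of the whole table. Loci 2024, 3911 and 223 were picked after their values were seen. The count moved by over 1.5 times with a single library left out: 15 loci passed without replicate 1 of 3 h, 18 without replicate 2 of 3 h, 25 without replicate 1 of 6 h and 22 without replicate 2 of 6 h.

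Across all loci the shift at 3 h ran with span. Loci spanning up to 5000 bases had a median log2 fold change of 0.10 at 3 h and -0.09 at 6 h, and those over 80000 bases -0.12 at 3 h and 0.10 at 6 h. At 1 h the medians were 0.01 and -0.03. The annotated genes gave 0.10 at 3 h and -0.09 at 6 h for the short class, and -0.14 at 3 h and 0.13 at 6 h for the long class. The 3 h libraries also had the lowest normalisation factors, 0.930 to 0.946, with 0.971 to 1.051 at the other times. The part of library composition in this pattern was not tested.

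**Figure D5:**
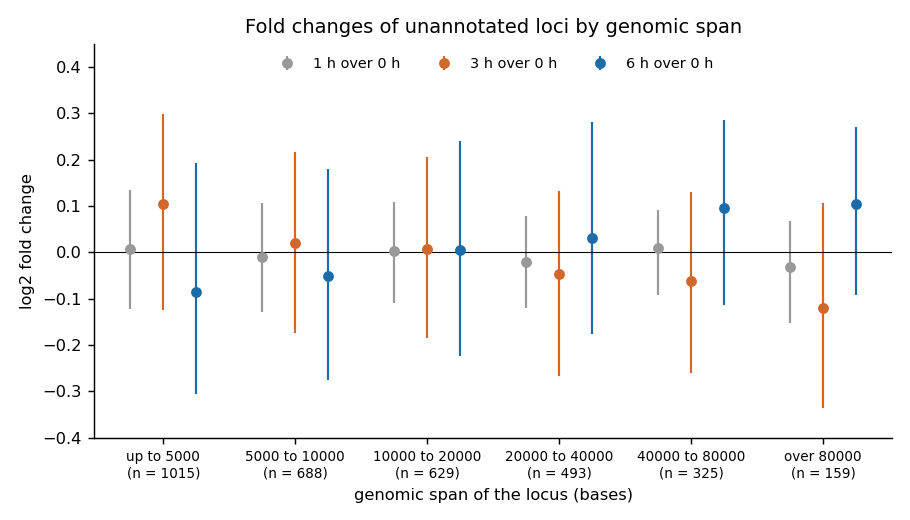
Median log2 fold change of the unannotated loci (points) with the quartiles (bars) after 1, 3 and 6 h of light over 0 h, by genomic span in bases with the number of loci under each class. The 3 h medians go down with span, 0.10 to -0.12, and the 6 h medians go up, -0.09 to 0.10, while the quartiles of neighbouring classes overlap.

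The loci on alternate contigs were also less even between libraries of the same time. Over features with a mean normalised count of 50 or more, the highest library exceeded the lowest of the same time by 3-fold or more (after adding 1 to each count) at 1 or more times in 113 of 1692 alternate contig loci (6.68%), 2 of 638 chromosome loci (0.313%), 0 of 99 scaffold loci and 109 of 11422 annotated genes (0.954%). These limits were set, and the example that follows was picked, after seeing the data. Locus 3161, at the position of ndufs4 and with its complex I domain, had 777, 343 and 42.0 normalised counts at 0 h, 41.9, 45.4 and 44.4 at 1 h, 53.7, 705 and 38.1 at 3 h, and 44.3, 35.7 and 29.8 at 6 h. Its log2 fold change at 6 h, -3.41, had an adjusted p of 0.096. In all, 133 loci changed by a log2 fold change of 1 or more in size at 6 h without passing, 73 higher and 60 lower.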

How the data were processed

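RNA of PAC-2 cells was selected by poly-A and sequenced as read pairs. For the zebrafish files the authors' provider mapped reads to the genome build GRCz11 and deposited, per gene, raw counts and FPKM (counts per length and depth). The sources do not state the strand setting, the programs that aligned and counted, the release of the annotation or the handling of reads with several matches, so antisense partners cannot be told apart with certainty. The assembled transcripts of the series were not used.

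From the deposited counts, edgeR 4.0.16 in R 4.3.3 fitted all 12 libraries, with filterByExpr, TMM normalisation and 8 residual degrees of freedom; DESeq2 1.42.0 was an alternative. A pass needed an absolute log2 fold change of 1 and an adjusted p under 0.001 over all features tested. Normalised counts are scaled to the mean library size. The SE given with a log2 fold change is its absolute value divided by the square root of the quasi-likelihood F statistic. It is an approximation derived from the test, not a coefficient error reported by the fit. The procedure was tested on simulated data. FPKM served for levels only. Distances were taken to the nearest annotated gene of the table on either strand. For alternate contig loci they are differences of position numbers. Replicate libraries of a time differed by more than sampling noise.

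Named loci were up to 15 of the largest rises and 10 of the largest falls called at 6 h with every library beyond those of 0 h, up to 5 each way at 3 h and 1 h (only 1 fell at 6 h and 1 at 3 h, and 0 passed at 1 h), the 5 highest by FPKM, those at the count minimum, and those nearest to a list of 29 light and clock genes; other loci named passed a test or are marked as picked. The loci and lists were chosen with earlier results of these data known. Alternatives are given below. The values of a locus called at 3 h beside an annotated gene are not reported here.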

Additional observations from a re-analysis of the deposited data

Results flagged for a closer look

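Of the loci that passed against 0 h, 5 also differed between 6 h and 3 h of light by the test of that difference itself, edgeR's quasi-likelihood test with Benjamini-Hochberg adjustment. Higher at 6 h than at 3 h were locus 3633 beside slc23a2, with a log2 fold change of 1.41 (adjusted p = 1.8e-04), locus 382 with 1.54 (2.3e-05), locus 3301 with 1.17 (6.0e-04) and locus 1584 with 1.29 (3.6e-05). Lower at 6 h than at 3 h was locus 1697, with -1.49 (2.3e-05). Locus 3301, with a diacylglycerol kinase domain at the position of card14, had 156, 126 and 116 normalised counts at 6 h, against 62.1, 53.3 and 60.9 at 3 h, and its call against 0 h was lost in 4 of the 12 fits that leave out 1 library, those without replicate 2 or 3 of 0 h and replicate 1 or 2 of 6 h (log2 fold change 1.13 to 1.68 over the 12), and when summed with the other locus and the gene at its position (0.59). With 3 libraries per time, no test for a single library apart from its group was made.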

How the results depend on the processing

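The counts at 6 h and 3 h kept within 1.5 times the main values of 46 and 28 under size factors of another kind, no filter on low counts, a test against a fold of 1.2, the compared times alone and each library left out. They also did with a mean count minimum of 50, which only narrows the loci counted from the same fit. They did not with an adjusted p under 0.05, which gave 103 loci at 6 h, 79 at 3 h, 1 at 1 h and 126 for 6 h against 3 h, and DESeq2 gave 45 at 3 h and 1 at 1 h; the first follows from the looser threshold, and the cause of the other was not tested. Leaving out 1 library gave 41 to 50 loci at 6 h, 23 to 34 at 3 h, 0 to 1 at 1 h and 15 to 57 for 6 h against 3 h. That last count was 18 under the test against a fold of 1.2. Of the 45 rises at 6 h, 34 kept their call under every alternative other than the higher count minimum and the summing with annotated genes, as did 21 of the 27 at 3 h. Locus 2084, not called, ranged between -0.15 and 0.020 at 6 h over the fits that leave out 1 library, positive only without replicate 2 of 0 h. Summed with the loci and genes that overlap them, 10 loci lost their call at 6 h and 6 at 3 h. Some of these sums join different genes, so a lost call does not tell how reads were split between contig and chromosome. Libraries shared replicate numbers, but same-numbered libraries did not deviate together (median correlation -0.008 over 18 pairs, 1 over 0.1, and 3 of 12 libraries closest to their own number); a replicate block gave 49 loci at 6 h, 29 at 3 h, 0 at 1 h and 49 for 6 h against 3 h. A planned search for promoter motifs was not run. With a mean minimum of 50, 35 loci passed at 6 h. These are a part of the 46 of the main fit, with no new fit made, so the part of depth was not tested.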
